A study of Mus musculus with 2 samples.

Results

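Histone lysine methyltransferases and demethylases were measured as RNA in mouse Extensively Self Renewing Erythroblasts (ESREs), red cell precursors that divide for long periods in culture. Their rows were taken by gene symbol: every row beginning with Kdm, Setd, Suv, Smyd, Prdm, Nsd, Whsc1 or Ehmt, or with Mll followed by a digit or nothing, apart from 1 Kdm row that is not reported here. These letters match 59 of the 25791 rows of the table. Among them, Nsdhl is an enzyme of sterol synthesis and was set aside (6.24 FPKM in expansion and 3.42 in maturation), which left 58 rows. FPKM is the fragment count of a gene scaled to its transcript length and to the sequencing depth. In the expansion group ESREs were proliferating, and in the maturation group they had been maturing for 1 day; both carry the C57/bl6 background, and the labels name no other treatment. The series title refers to β-Yac transgenic mice, and the labels do not say whether the sequenced cells carried that transgene. The series' design text mentions duplicates per time point, but the table holds 1 FPKM value per row and group. No difference below therefore has a replicate check, and no test, SD or p-value could be given.

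Methyl groups on histone lysines are written by SET-domain enzymes, which take the methyl group from S-adenosylmethionine, and are removed by demethylases. Most demethylases carry a Jumonji domain and need iron and 2-oxoglutarate. Marks on lysine 4 and lysine 36 of histone H3 are typical of active genes, marks on lysine 9 and lysine 27 of H3 of silent chromatin, and methylation of lysine 20 of histone H4 is tied to chromosome compaction. Erythroblasts condense their nucleus before they expel it, and SETD8, which places the first methyl group on lysine 20 of histone H4, is known to be needed in maturing erythroid cells. The rule goes by name, so it also takes in rows whose products are not established histone enzymes, such as Setd3, an actin histidine methyltransferase, and most Prdm genes, which encode zinc finger proteins.

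After 1 day of maturation most of these genes stood slightly lower, and a few stood well apart in either direction. Ehmt2, which encodes the H3K9 methyltransferase G9a, had 6.43 FPKM in expansion and 1.83 in maturation. Suv420h2, which encodes a methyltransferase that extends H4K20 methylation, was at 4.91 and 10.7 FPKM. Setd8 was the most abundant member in both groups, at 15.0 and 12.6 FPKM. A row was counted as expressed at 1 FPKM or more in at least 1 group, which held for 37 of the 58 members. Log2 ratios are of maturation over expansion after adding 1 to each FPKM value. This ratio was at or below -1 for Ehmt2 and Smyd5, so 2 of 37 expressed members (5.41%) counted as at least 2-fold lower, beside 6.7% of the 9263 expressed rows of the whole table. No member had a log2 ratio of 1 or more, beside 3.13% of expressed rows. With 37 members, counts of 2 and 0 are near these background shares and do not set the family apart. Without the added 1, the FPKM ratio itself was at least 2-fold for 1 member upward (Suv420h2) and for 5 downward (Ehmt2, Smyd5, Smyd2, Kdm5b and Kdm6b), beside 4.24% of all expressed rows upward and 15.1% downward on that scale.

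The erythroid identity of the cells was visible in both groups. All 12 erythroblast markers were expressed, and their median log2 ratio was 2.10, although Slc4a1 and Alas2 were below 1 FPKM in expansion. Markers of other cells were present in expansion and lower in maturation. Of 4 mast cell markers, Ms4a2 had 7.07 FPKM in expansion against 0.0903 in maturation and Hdc 4.47 against 0.0945, while Cpa3 had 0.107 in expansion and 0 in maturation and Mcpt8 was listed at 0 in both. Of 4 megakaryocyte markers, Gp5, Gp1ba and Itga2b were at 9.63, 7.22 and 5.15 FPKM and then at 0.438, 0.845 and 0.996, and Pf4 was at 0.0333 and then listed at 0. The summed FPKM was 11.6 and 0.185 for the mast cell list and 22.03 and 2.28 for the megakaryocyte list. Of 3 macrophage markers Cd68 alone was expressed (1.18 and 0.539 FPKM), and no granulocyte, lymphocyte or hepatocyte marker was. The mast cell and megakaryocyte values were lower in maturation together with Ehmt2, Smyd5, Smyd2, Kdm5b and Kdm6b, and their part in those differences was not tested. In RNA from a whole culture, fewer cells of a type and less RNA per cell cannot be told apart.

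The middle of the family lay close to the middle of all genes. The median log2 ratio of the 37 expressed members was -0.30, and that of all expressed rows was -0.25. Of the 37, 31 (83.8%) had a ratio below 0, as had 74.1% of all expressed rows. With ratios centred on the all-row median, 18 members lay above 0 and 19 below, Suv420h2 passed 2-fold upward, and Ehmt2 was the 1 member past 2-fold downward. On that scale 4.53% of all expressed rows were past 2-fold upward and 3.92% downward, so 1 of 37 either way is near the background. With the added 1, the central members were also more tightly packed than the table as a whole. The quartiles of their log2 ratios were -0.43 and -0.13, and those of all expressed rows were -0.51 and 0.01. Adding 1 narrows the ratios of weak genes more than those of strong genes, and the members were the weaker set. Quartiles without the added 1 were not computed, so the narrower spread is not shown to be a trait of the family. Levels were modest. The median FPKM of expressed members was 2.78 in expansion and 1.91 in maturation, against 4.34 and 3.38 for all expressed rows, and only Setd8, Smyd2, Suv39h1 and Suv420h2 exceeded 7 FPKM in either group.

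**Figure D1:**
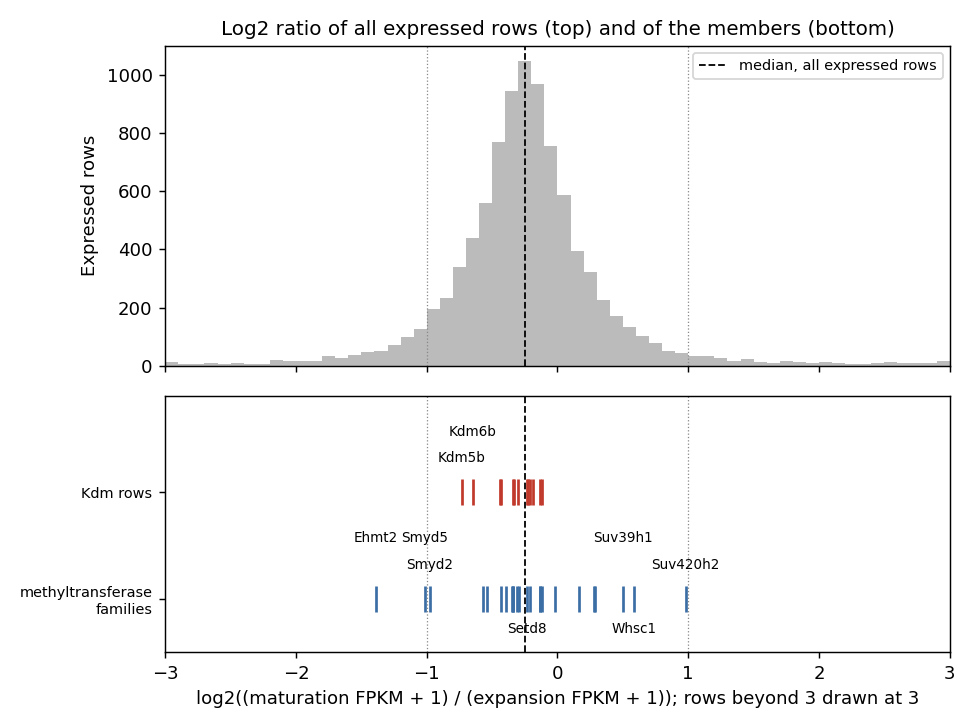
Log2 ratio of maturation over expansion, as log2 of (FPKM + 1), for all 9263 expressed rows (histogram, top) and for the 37 expressed members (vertical ticks, bottom), with the Kdm rows and the methyltransferase families on separate lines. The dashed line is the median of all expressed rows at -0.25 and the dotted lines mark 2-fold, and all 13 Kdm ticks lie below 0, 6 of them to the right of the dashed line, while the methyltransferase ticks spread from -1.39 for Ehmt2 to 0.98 for Suv420h2.

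The sequences just before the transcription start are shown for the most abundant member, for the higher members Suv420h2 and Suv39h1, and for the 3 lowest, Ehmt2, Smyd5 and Smyd2. Each is the 250 bases before the first start listed in the set of RefSeq promoter sequences used here (build GRCm38.p6). They are printed 5′ to 3′ on the gene's own strand. Whsc1, with a log2 ratio of 0.59, had no entry in that set and is not shown. Capitals mark matches on either strand to AGATAA (bound by GATA factors), CCNCNCCC (the letters of a KLF1 site, which also match many GC boxes), TTCCCGC (E2F), CCAAT (the CCAAT box) and CACGTG (the E-box bound by MYC). Where 2 matches overlap, the capitals run together. RefSeq calls Setd8 Kmt5a and Suv420h2 Kmt5c.
Setd8, chr5:124439680-124439929, plus strand: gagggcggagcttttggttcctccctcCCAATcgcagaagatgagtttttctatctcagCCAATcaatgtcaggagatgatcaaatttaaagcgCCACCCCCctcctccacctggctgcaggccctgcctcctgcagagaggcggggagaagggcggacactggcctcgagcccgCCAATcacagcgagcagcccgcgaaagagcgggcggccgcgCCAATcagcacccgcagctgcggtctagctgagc
Suv420h2, chr7:4739877-4740126, plus strand: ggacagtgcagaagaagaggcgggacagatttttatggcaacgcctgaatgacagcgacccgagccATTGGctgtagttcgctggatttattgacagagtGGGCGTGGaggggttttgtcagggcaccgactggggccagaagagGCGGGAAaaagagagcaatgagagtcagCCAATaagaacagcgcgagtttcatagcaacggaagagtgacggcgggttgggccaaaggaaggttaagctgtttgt
Suv39h1, chrX:8074761-8075010, minus strand: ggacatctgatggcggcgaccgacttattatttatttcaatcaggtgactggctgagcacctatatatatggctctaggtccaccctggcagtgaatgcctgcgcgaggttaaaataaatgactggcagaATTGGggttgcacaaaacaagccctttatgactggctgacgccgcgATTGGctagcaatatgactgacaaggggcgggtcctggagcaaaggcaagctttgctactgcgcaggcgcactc
Ehmt2, chr17:34898224-34898473, plus strand: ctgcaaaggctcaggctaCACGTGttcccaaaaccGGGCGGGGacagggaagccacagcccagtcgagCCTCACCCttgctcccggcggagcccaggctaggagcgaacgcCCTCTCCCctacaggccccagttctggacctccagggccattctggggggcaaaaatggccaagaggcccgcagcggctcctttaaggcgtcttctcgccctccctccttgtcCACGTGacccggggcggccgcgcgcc
Smyd5, chr6:85431726-85431975, plus strand: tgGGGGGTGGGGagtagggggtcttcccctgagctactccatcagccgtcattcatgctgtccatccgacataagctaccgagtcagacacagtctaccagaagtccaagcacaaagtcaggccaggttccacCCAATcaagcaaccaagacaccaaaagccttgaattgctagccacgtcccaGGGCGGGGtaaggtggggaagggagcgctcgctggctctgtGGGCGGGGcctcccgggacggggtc
Smyd2, chr1:189922292-189922541, minus strand: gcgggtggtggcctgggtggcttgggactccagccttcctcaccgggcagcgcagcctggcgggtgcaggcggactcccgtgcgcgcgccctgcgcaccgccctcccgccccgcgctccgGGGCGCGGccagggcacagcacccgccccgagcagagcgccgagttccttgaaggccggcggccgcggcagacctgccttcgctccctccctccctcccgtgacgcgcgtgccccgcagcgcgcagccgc

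Setd8 held CCAAT 4 times in this window, and 0.918% of the 27025 genes with a listed start held it at least 4 times. Suv420h2 and Suv39h1 held it 2 times each, Smyd5 held it 1 time, and Smyd2 and Ehmt2 not at all. Of the 27 expressed members with a listed start, 6 (Kdm3a, Setd3, Setd8, Setdb2, Suv39h1 and Suv420h2) held CCAAT at least 2 times, beside 10.5% of all genes. Of these 6, Kdm3a, Setd8 and Setdb2 had a log2 ratio below 0 and the others a ratio above 0. At least 1 copy was present in 40.7% of these members and in 34.5% of all genes. Ehmt2 held CACGTG 2 times, and 7.41% of the members and 6.04% of all genes held it. Among these members the E2F letters occurred in Suv420h2 alone, 3.7% of them against 3.86% of all genes. CCNCNCCC was in 59.3% of the members and 45.6% of all genes, and AGATAA in 14.8% and 10.2%. The members' windows were richer in G and C, with a median of 60.4% against 52% for all genes, and CCNCNCCC is made mostly of C. In each of these comparisons the members are expressed rows, while the 27025 genes were not filtered by expression. Shares among expressed genes alone were not computed, so no difference here is shown to be a trait of the family.

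The 3 H4K20 methyltransferases differed from each other in direction. Setd8 (chromosome 5, mm9 124889939 to 124912316) had 15.0 FPKM in expansion and 12.6 in maturation, a ratio of 0.839 (log2 ratio -0.24, which becomes 0.01 when centred on the median of all rows). Its place among expressed rows, ordered by FPKM, was the 80.9th percentile in expansion and the 79.9th in maturation. The rank of Setd8 thus differed by about 1 percentile. Suv420h2 (chromosome 7, 4691729 to 4699116) was 2.17-fold higher in maturation, with a log2 ratio of 0.98 at the 96.8th percentile of all expressed rows. It moved from the 54.5th to the 77.5th percentile of level. Suv420h1 (chromosome 19, 3767421 to 3818303), its paralog, was at 1.58 FPKM and 0.964. The FPKM of Suv420h2 was 3.10 times that of Suv420h1 in expansion and 11.1 times in maturation, the widest shift among the 14 paralog ratios compared. Within the summed FPKM of the 3 enzymes, Setd8 held 69.8% in expansion and 52.1% in maturation, and Suv420h2 22.8% and 44.0%. The summed FPKM was 21.5 and 24.2.

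The H3K9 methyltransferases shifted from the EHMT pair toward Suv39h1. EHMT1 and EHMT2 work as a pair that places mono- and dimethyl marks, mostly outside constitutive heterochromatin, while SUV39H1 and SUV39H2 place trimethyl marks at pericentric heterochromatin. Ehmt2 (chromosome 17, 35035444 to 35050992) was 3.50-fold lower in maturation, with a log2 ratio of -1.39 at the 3.04th percentile of all expressed rows. Its level went from the 62.8th percentile to the 30.3rd. Ehmt1 (chromosome 2, 24646293 to 24742591) was lower in the same direction, at 2.06 and 1.07 FPKM (log2 ratio -0.57). Suv39h1 (chromosome X, 7638297 to 7651886) was at 5.97 and 8.84 FPKM, 1.48-fold higher, with a log2 ratio of 0.50 at the 92.4th percentile. Suv39h2 stayed under 1 FPKM in both groups (0.978 and 0.885). Setdb1, the trimethylase that acts with TRIM28 at retroelements, was at 4.60 and 3.53 FPKM at a locus listed together with the more abundant Lass2 (26.4 and 18.5), and Setdb2 at 1.65 and 1.16.

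Expressed as a share of the summed FPKM of these 6 enzymes, Ehmt1 and Ehmt2 held 39.1% in expansion and 16.8% in maturation. Suv39h1 and Suv39h2 held 32.0% and 56.2%, and Setdb1 and Setdb2 28.8% and 27.1%. The order of the EHMT and SUV39H pairs was thus opposite in the 2 groups, while the share of the SETDB pair was nearly equal. The total for the 6 enzymes was 21.7 FPKM in expansion and 17.3 in maturation. These shares do not depend on how the groups were scaled to each other. Some reads of Suv39h1 may not be assignable to it alone. Of its 50-base windows, 13.1% recur in other GENCODE transcripts, mostly the predicted gene Gm14820. Where those copies lie, and whether the annotation behind the FPKM values held them, was not checked. The locus of Suv39h1 is listed together with LOC100504708 (0.0432 and 0.132 FPKM). No window of Ehmt1 or Ehmt2 recurred.

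**Figure D2:**
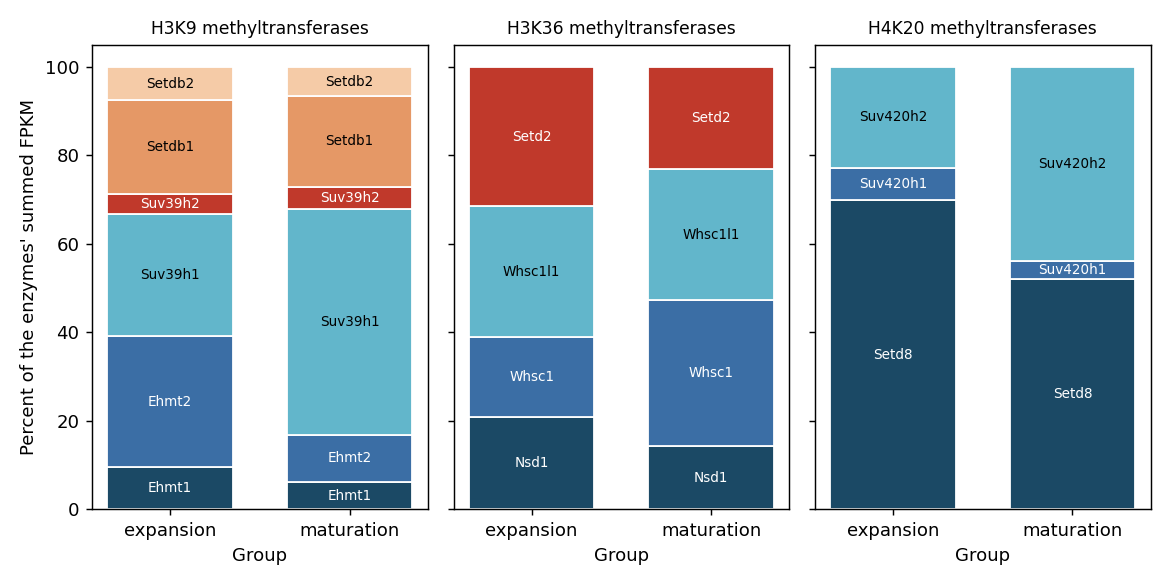
Stacked bars of each enzyme's percentage of the summed FPKM of the enzymes for H3K9, H3K36 and H4K20, in expansion and maturation, with 1 deposited value per gene and group. Ehmt2 narrows from 29.6% to 10.6% of the H3K9 set while Suv39h1 widens from 27.5% to 51.1%, Whsc1 widens from 18.1% to 33.0% of the H3K36 set, and Suv420h2 widens from 22.8% to 44.0% of the H4K20 set.

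Among the H3K36 methyltransferases, Whsc1 stood apart from its relatives. Whsc1 (Nsd2 in RefSeq, chromosome 5, 34185761 to 34240615), which places dimethyl marks, had 1.77 FPKM in expansion and 3.16 in maturation. That 1.79-fold difference had a log2 ratio of 0.59, at the 93.7th percentile of all expressed rows. The other 2 enzymes of the NSD family differed from it, as Whsc1l1 (Nsd3) was nearly level at 2.88 and 2.83 FPKM and Nsd1 was at 2.02 and 1.37. Whsc1 was below Whsc1l1 in expansion (0.614 times its FPKM) and above it in maturation (1.12 times). Setd2, which places the trimethyl mark behind elongating RNA polymerase, was at 3.07 and 2.22 FPKM.

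The H3K4 methyltransferases differed by less than 2-fold. Setd1a, a catalytic subunit of the COMPASS complexes that place most H3K4 trimethylation, was at 5.76 and 4.33 FPKM. Its paralog Setd1b was at 1.33 and 1.84 FPKM. Setd1a thus had 4.34 times the FPKM of Setd1b in expansion and 2.35 times in maturation. The Setd1a value may be uncertain, because 51.9% of its 50-base windows are shared with the predicted gene Gm49388 of GENCODE. Whether this sharing affected the value was not tested. Mll3 (Kmt2c), an enhancer monomethylase, was at 0.862 and 1.09 FPKM, and its relative Mll2, which here is the Kmt2d gene of chromosome 15, was at 1.58 and 1.35. Mll1 (Kmt2a) did not reach 1 FPKM, at 0.846 and 0.769. Mll5 (Kmt2e), which carries a SET domain without known activity, was at 2.61 and 2.30 FPKM and is listed at a locus shared with Srpk2 (1.01 and 0.318 FPKM). Setd1b and Mll3 were the H3K4 rows with a ratio above 0, at the 87.8th and 83.3rd percentiles of all expressed rows. None of the 5 expressed rows of this set was beyond 2-fold.

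The SMYD and remaining SETD rows mostly encode methyltransferases that act on proteins besides histones. Smyd2, which methylates p53 and other proteins, had 8.41 FPKM in expansion and 3.78 in maturation, the second most abundant member in expansion. Smyd5 (chromosome 6, 85381970 to 85396423) was at 3.15 and 1.05 FPKM, 2.98-fold lower. Both lay among the lowest ratios of the table, at the 7.17 and 6.53 percentiles of all expressed rows. For Smyd2 (chromosome 1, 191704371 to 191746167), 31.8% of the 50-base windows recur in the predicted gene Gm37422, whereas no window of Smyd5 recurred. Setd3 was at 4.77 and 6.001 FPKM, 1.26-fold higher, with 23.4% of its windows shared, mostly with Gm14026. Setd5 was at 4.07 and 2.49 FPKM, Setd6, which methylates the NF-kB subunit RelA, at 3.01 and 2.47, and Setd7, a lysine monomethylase whose locus is listed together with Gm2370, at 2.78 and 1.80. Prdm4, a zinc finger protein gene, was the 1 expressed row of 14 Prdm rows, at 2.29 and 2.03 FPKM.

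All 13 expressed Kdm rows had a log2 ratio below 0, but 6 of them lay above 0 once centred on the all-row median. Their own median was -0.30, and none was beyond 2-fold on that scale. The lowest were Kdm5b and Kdm6b. Kdm5b (chromosome 1, 136456755 to 136529455), an H3K4 demethylase, had 2.97 FPKM in expansion and 1.39 in maturation (log2 ratio -0.73). Kdm6b (chromosome 11, 69212010 to 69227177), an H3K27 demethylase known for its induction by stress and cytokine signals, was at 2.37 and 1.15 FPKM (log2 ratio -0.65).

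The other members of these families differed less between the groups. Kdm5a was at 1.89 and 1.28 FPKM, the X-linked Kdm5c at 3.26 and 2.89, and its Y-linked paralog Kdm5d at 1.88 and 1.53. The FPKM of Kdm5c was 1.10 times that of Kdm5b in expansion and 2.07 times in maturation. Kdm6a, the X-linked H3K27 demethylase, was at 2.15 and 1.91 FPKM, and its ratio to Kdm6b was 0.909 in expansion and 1.66 in maturation. In expansion Kdm6b stood above Kdm6a, and in maturation below it.

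Within the KDM2 and KDM4 families the proportions differed little between the groups, and within KDM3 somewhat more. Kdm2b, an H3K36 demethylase that also carries a Polycomb complex to CpG islands, was at 6.004 and 4.17 FPKM and Kdm2a at 2.85 and 1.85. For Kdm2b, 22.4% of the windows recur elsewhere, and the largest share with 1 gene was 9.43%, with its neighbour Rnf34. The H3K9 demethylases Kdm3a and Kdm3b were at 1.98 and 1.37 FPKM and at 2.78 and 2.23. Kdm4a, which acts on H3K9 and H3K36, was at 4.36 and 3.35 FPKM, Kdm4b at 1.29 and 0.944, and Kdm4c at 1.68 and 1.31. Kdm4a had 3.39 times the FPKM of Kdm4b in expansion and 3.55 times in maturation, and the ratio of Kdm4a to Kdm4c was 2.60 and 2.56. That of Kdm2a to Kdm2b was 0.475 and 0.444, and that of Kdm3a to Kdm3b 0.713 and 0.612.

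**Figure D3:**
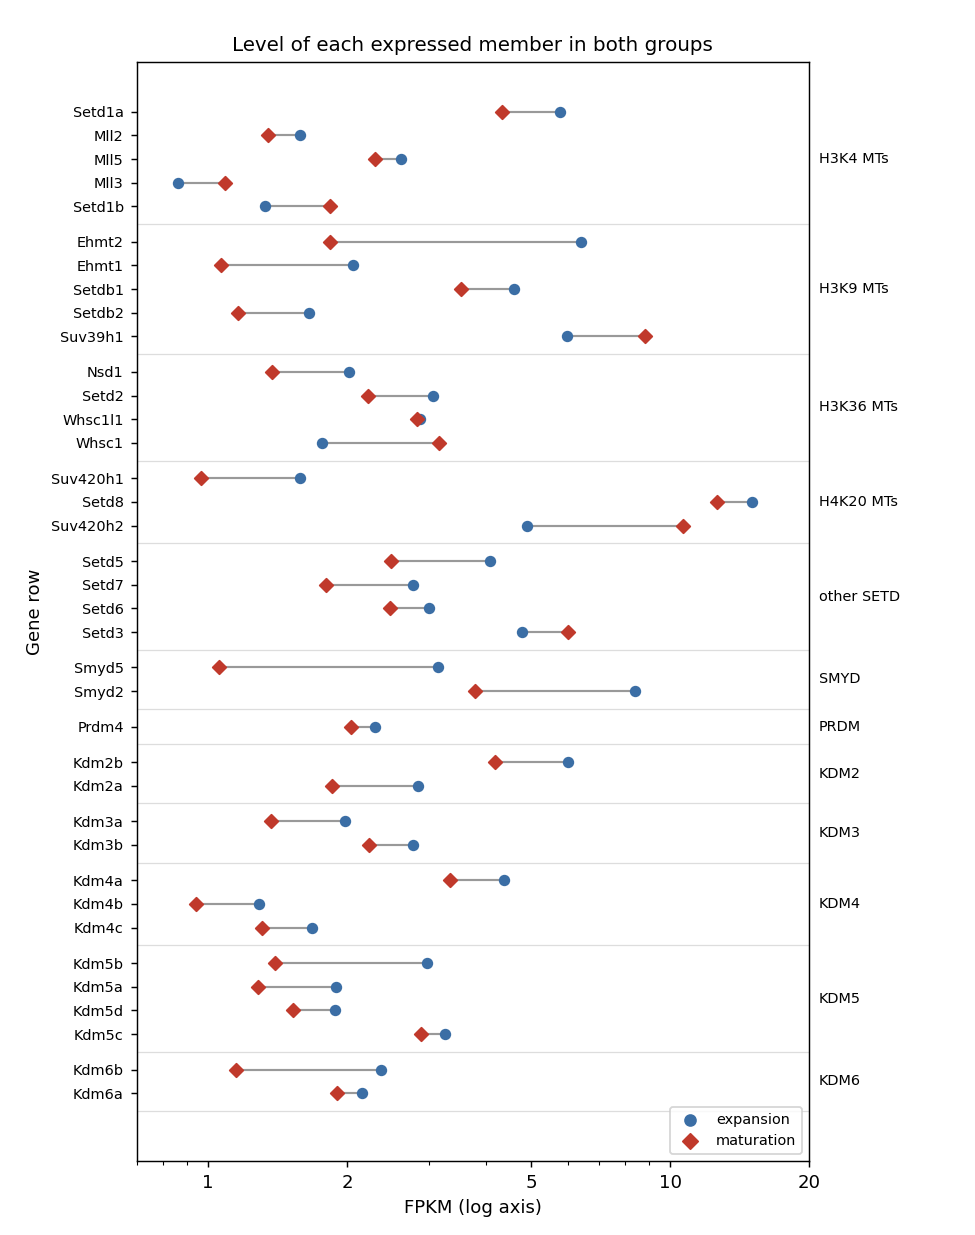
FPKM of each of the 37 expressed members in expansion (circles) and maturation (diamonds) on a log axis, grouped by the residue or family of the enzyme and joined by a line. MTs stands for methyltransferases; Setd8 is rightmost at 15.0 and 12.6 FPKM, the longest lines belong to Ehmt2, Smyd5, Smyd2 and Suv420h2, and the diamond lies to the right in Setd1b, Mll3, Suv39h1, Whsc1, Suv420h2 and Setd3.

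**Figure D4:**
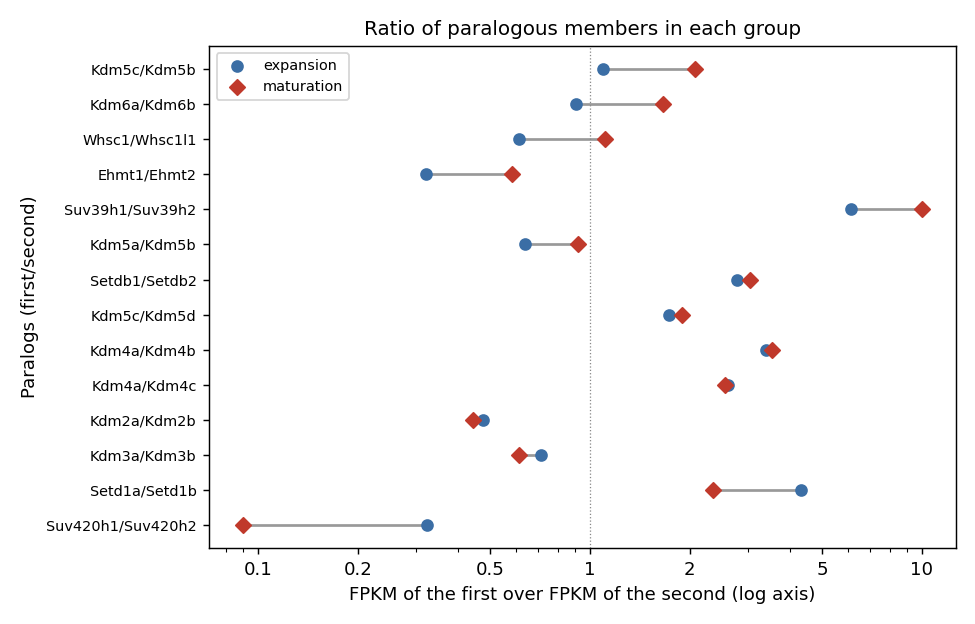
FPKM of the first paralog over that of the second in expansion (circles) and maturation (diamonds), on a log axis, for 14 ratios. Suv420h1 over Suv420h2 goes from 0.322 to 0.0904, whereas the ratios within KDM2, KDM4 and SETDB stay nearly in place and Kdm3a over Kdm3b goes from 0.713 to 0.612.

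The other 21 members stayed below 1 FPKM in both groups, and 9 of them below 0.1. The highest was Suv39h2. Among the Prdm rows Prdm1, which encodes the repressor BLIMP1, and Prdm14 were listed at 0 in expansion and stood at 0.00361 and 0.00410 FPKM in maturation, so no fold is given. Prdm9, a meiotic H3K4 methyltransferase, was at 0.540 and 0.464 FPKM, Prdm2 at 0.755 and 0.501, Prdm10 at 0.400 and 0.499, Prdm11 at 0.683 and 0.316, and Prdm15 at 0.748 and 0.334. Prdm6, Prdm8, Prdm12, Prdm13 and Prdm16 were below 0.1 FPKM in both groups, as was the muscle gene Smyd1. Among enzymes, Kdm1b was at 0.614 and 0.247 FPKM, Kdm4d at 0.362 and 0.270, Setd4 at 0.269 and 0.112, Smyd3 at 0.499 and 0.294, and Smyd4 at 0.577 and 0.585.

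Set against each other by residue, the summed FPKM of chosen methyltransferases per summed FPKM of chosen demethylases was higher in maturation at each of 4 residues. For H3K4 the ratio of the Setd1 and Mll rows to the Kdm5 rows was 1.30 in expansion and 1.65 in maturation. For H3K9 the ratio to the Kdm3 and Kdm4 rows was 1.74 and 1.83, and for H3K36 the ratio to the Kdm2 and Kdm4 rows was 0.589 and 0.806. The Kdm4 rows enter both of these sums. For H3K27 the ratio of Ezh1 and Ezh2, the Polycomb methyltransferases outside the rule, to Kdm6a and Kdm6b was 1.67 and 3.39. The demethylase sums in maturation were 0.709, 0.761, 0.719 and 0.675 of those in expansion for H3K4, H3K9, H3K36 and H3K27. The methyltransferase sums were 0.899, 0.798, 0.984 and 1.37 of theirs. The H3K9 ratio differed least and the H3K27 ratio most. A ratio within a group does not depend on the scaling between groups. These sums count RNA and not enzyme activity, and they do not hold every enzyme of a residue. The H3K4 sum counts Mll5, whose SET domain has no known activity, and Setd1a, many of whose windows are shared. Of the 5 expressed H3K9 methyltransferase rows, Suv39h1 alone had a ratio above 0 (5.97 and 8.84 FPKM), and 13.1% of its windows are shared. The H3K9 ratio without Suv39h1 was not computed, so its small difference may rest on that 1 row. Among the measured rows left out are Wbp7, Kdm1b, Jmjd1c, Phf2, Phf8 and Uty, and ratios with them were not computed.

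Genes that work with these enzymes were looked up in 8 lists, of which 64 of 74 rows were expressed. Of these, 2 were past 2-fold upward (3.13% of all expressed rows were) and 3 downward (6.7%). Those upward were Uhrf1, which reads H3K9 methylation at replication forks, at 9.08 and 21.7 FPKM, and Orc1 (the row Orc1l), an origin subunit that binds H4K20 dimethylation, at 1.41 and 4.61. In the list of H4K20 readers and of SETD8 turnover, 5 of 11 expressed rows had a log2 ratio above 0 and the median was -0.14. Besides Orc1 these were the condensin II subunits Ncapg2 (2.80 and 6.08 FPKM) and Ncapd3 (2.82 and 4.29), and Pcna (75.6 and 138) and Dtl (4.63 and 8.72), which together with the CUL4 ligase direct SETD8 protein to destruction in S phase. The ligase subunits Ddb1 (32.4 and 28.5 FPKM), Cul4a (5.64 and 5.04) and Cul4b (3.59 and 2.78) had log2 ratios of -0.18, -0.14 and -0.28, the last below the median of all rows and the others above it. The remaining rows with a ratio below 0 were Skp2 (1.69 and 1.02 FPKM), Trp53bp1 (1.29 and 0.854) and Fzr1 (5.51 and 4.81). Skp2 and Trp53bp1 were the lowest expressed rows of the list, with log2 ratios of -0.41 and -0.30.

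Of the 10 H3K9 partners and readers, Uhrf1 alone was beyond 2-fold, and the median was -0.10. Cbx5, which encodes HP1 alpha, was at 8.38 and 10.4 FPKM, Cbx3 at 27.6 and 29.4, and Cbx1 at 6.26 and 3.92. Wiz and Zfp644, zinc finger partners of the EHMT pair, were at 3.68 and 3.41 and at 1.52 and 1.32 FPKM, and Trim28 was at 19.2 and 12.8. None of the 12 COMPASS subunits was beyond 2-fold, with a median of -0.22, and the largest difference was that of Men1 at 5.29 and 2.91 FPKM. The medians of the H3K36 readers (5 expressed, -0.09) and the CoREST partners (7 expressed, -0.21) lay above that of all expressed rows. Of enzymes outside the rule, Ezh2 was at 6.49 and 9.43 FPKM, Dot1l, the H3K79 methyltransferase, at 3.57 and 4.53, and Jmjd1c, a relative of Kdm3a, at 2.89 and 0.9998.

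The list that supplies methyl groups and 2-oxoglutarate stood lowest, with a median of -0.54, and 7 of its 9 rows lay below the all-row median. The 3 partner rows past 2-fold downward belonged to it. Mtap, which salvages methionine, was at 8.35 and 2.35 FPKM, and the isocitrate dehydrogenases Idh1 and Idh2 were at 5.09 and 1.76 and at 12.2 and 4.89. Mat2a, the enzyme that makes S-adenosylmethionine, was at 45.9 and 33.0 FPKM, and Ahcy, which clears the by-product of methylation, at 19.3 and 13.0. Ogdh, which consumes 2-oxoglutarate, was the 1 row with a ratio above 0, at 6.13 and 7.61 FPKM.

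**Figure D5:**
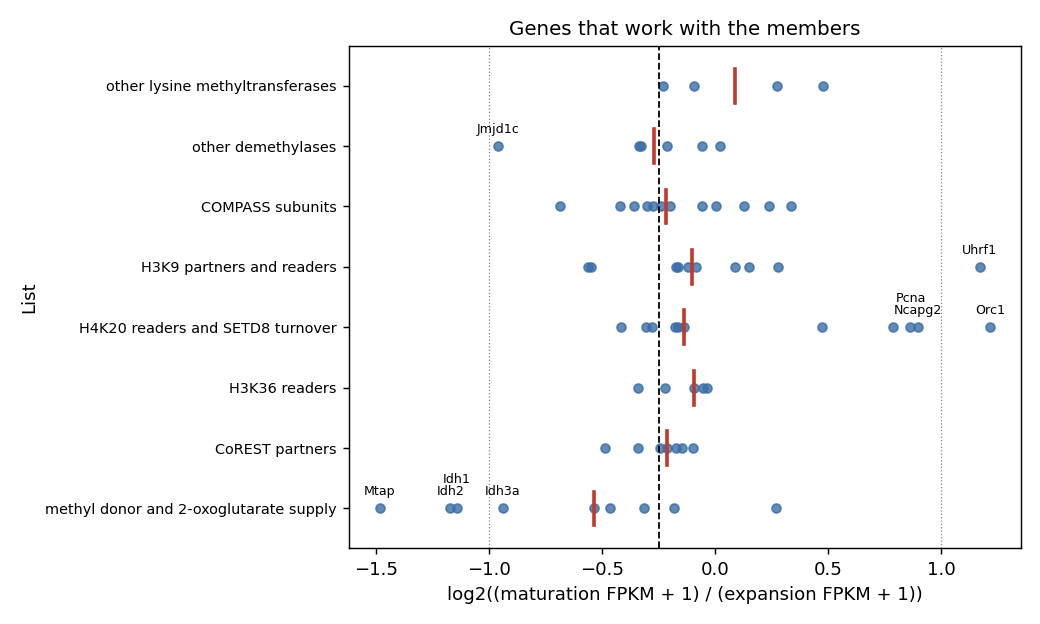
Log2 ratio of maturation over expansion, as log2 of (FPKM + 1), for the 64 expressed genes of 8 lists that work with the members (points), with each list's median (red bar), the median of all expressed rows (dashed line) and 2-fold (dotted lines). Orc1 and Uhrf1 lie beyond 2-fold upward, Mtap, Idh1 and Idh2 beyond 2-fold downward, and the list medians lie between -0.54 and 0.09.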

How the data were processed

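The authors deposited FPKM values, with 1 column for each group according to the header. Per the submitters' processing notes, Cuffdiff 2.0.2 and the build mm9 were used; aligner, annotation and treatment of duplicates were not given in the sources used here. RNA was extracted with a Qiagen kit and libraries were made with a Bioo Scientific kit, per the labels' protocols. Row coordinates were given from 1, since the spans of 175 of 175 microRNA rows equalled their RefSeq length with starts counted from 0.

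Ratios were computed in Python 3.11.15 with pandas 2.3.3 and a pseudocount of 1, which understates differences of weak genes. Rows needed 1 FPKM in a group, and 2-fold was the size counted. With 1 value per group no test was run. All 58 members matched RefSeq by symbol or synonym on the same chromosome. The 50-base windows were those of each member's coding transcripts in GENCODE M21 (GRCm38), a later annotation than mm9. They were searched for on both strands of all GENCODE transcripts of other genes, coding or not. Promoter windows came from a set of RefSeq GRCm38.p6 promoter sequences, which held an entry for 27 of 37 expressed members. Whether RefSeq itself lists starts for the others was not checked.

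Every expressed member is named with both values, and of each partner list up to 3 members with the largest ratios plus a few others chosen after their values were seen. The members and all lists were chosen with earlier results of these data known. Members below 1 FPKM are given by their values as well. Read totals were not analysed here. The steps of the lowest values (given in the closing observations) would put the expressed members at about 175 to 3895 reads per group. This holds if a step is 1 read and the median length of a gene's coding transcripts applies. These are low estimates, because the largest step was used. The lowest, 175, was that of Nsd1 in maturation, whose median coding transcript of 1075 bases is short beside its 13908 distinct 50-base windows. At 175 reads the counting error would be 7.56%, which covers counting only.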

Additional observations from a re-analysis of the deposited data

How the results depend on the processing

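The 10 alternatives reversed no member beyond 2-fold. The count at least 2-fold lower was 4 with a pseudocount of 0.1 (adding Kdm5b and Smyd2), 3 with 0.5 (adding Smyd2), 0 with 5, 1 with a minimum of 5 FPKM, 1 when ratios were centred on the all-row median and 5 at a fold of 1.5 (adding Smyd2, Kdm5b and Kdm6b). The count at least 2-fold higher was 0, but became 1 (Suv420h2) with a pseudocount of 0.1 or 0.5, after centring, and after rescaling to equal sums without small RNA rows, and 2 at a fold of 1.5 (with Whsc1). The median log2 ratio of -0.30 was -0.37 and -0.34 with pseudocounts of 0.1 and 0.5, -0.13 with 5, -0.20 with no filter, -0.29 with a minimum of 5 FPKM, -0.0496 after centring and -0.24 after rescaling. At a fold of 1.5 the whole table had 6.3% of rows higher and 20.4% lower, with a pseudocount of 0.1 4.03% and 14.1%, with 0.5 3.5% and 9.92%, with 5 1.79% and 1.6%, with a minimum of 5 FPKM 5.31% and 7.92%, after centring 4.53% and 3.92%, and after rescaling 4.29% and 9.37%. Centring gave 12 members, Setd8 among them, the other sign, and rescaling 1 (Whsc1l1). The other 25 kept their sign in each alternative that included them; a minimum of 5 FPKM left 8 members. Counting Nsdhl, or leaving out the 4 expressed members that share a listed locus, changed neither count. No paired analysis was possible because each group has 1 deposited value. Read totals were not analysed here, so the limit set by depth rests on an estimate from value steps, and the spread between cultures is unknown.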

Other observations

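The lowest FPKM values came in steps. Over 978 olfactory receptor rows of 850 to 1100 bases, FPKM multiplied by the length in kilobases was 0 in 641 rows of expansion and in 297 of maturation. In expansion the lowest step held 238 rows between 0.00526 and 0.00682. In maturation it held 70 rows around a median of 0.00485 and 171 rows around 0.00732, so that 2 step sizes were present in 1 column. If such a step is the worth of 1 read, the read numbers stated for the members follow. They use the largest step, and so are low estimates, and the median length of a member's coding transcripts. Examples are about 3596 and 829 for Ehmt2 and 1568 and 2749 for Suv420h2.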
